A study of Drosophila melanogaster with 3 samples.

Results

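The 9 genes described here encode core proteins of the small nucleolar ribonucleoprotein particles (snoRNPs) and 2 of their nucleolar partners, and they were chosen by name from 13968 annotated protein-coding genes. Fib, Nop56, nop5 and hoip encode the box C/D core. Nop60B, NHP2 and CG7637 encode proteins of the box H/ACA core, and Nopp140 and Nnp-1 encode the partners. All 9 names were found, CG7637 under its present symbol Nop10. GFP-tagged Bdp1 was mapped at these genes by ChIP-seq (chromatin immunoprecipitation followed by sequencing) of *Drosophila melanogaster* whole embryos collected at 0 to 24 h, males and females together. A transgenic line supplied the embryos and stably makes Bdp1 (CG9305) with GFP at its C terminus, and an antibody against GFP was used for the precipitation. Chromatin was sonicated to 200 to 800 bp. There were 3 biological replicates in 1 group, so the design holds no comparison between conditions, and the promoter that drives the transgene is not given in the labels. Whole embryos mix all tissues, so a weak signal at each copy and a strong signal in few cells cannot be told apart.

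Small nucleolar RNAs guide chemical modification of ribosomal RNA. In a box C/D particle fibrillarin, the product of Fib, transfers methyl groups to the ribose, and in a box H/ACA particle the dyskerin homologue Nop60B turns uridine into pseudouridine. Nopp140 is a phosphorylated nucleolar chaperone that associates with both kinds of particle. Bdp1 is a subunit of TFIIIB, which positions RNA polymerase III (Pol III) at genes for tRNAs and other short RNAs, whereas the genes described here encode proteins and are transcribed by RNA polymerase II (Pol II).

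All 9 promoters held the palindrome CACGTG, an E-box of the kind bound by Myc and Max, within 35 bases of the 5' end. Promoter sequence ran from 250 bases before to 50 bases after the outermost annotated 5' end, and each motif was searched on both strands. The share was 9 of 9 promoters here and 4.20% of the 13968 protein-coding promoters of the same length (586). The promoters of 4 of these genes are printed 5' to 3' from the NCBI Release 6 assembly, because they cover genes with and without a peak and, in all but Nopp140, hold matches to other motifs. Nopp140 is at chr3L:21832524-21832823 on the plus strand, and Nnp-1 is at chr2L:13366140-13366439 on the minus strand. NHP2 is at chr3L:14802119-14802418 and Nop56 at chr3R:22421019-22421318, both on the minus strand. Capitals mark matches to the motifs searched. The first 3 genes had an optimal peak, and Nop56 had none.
Nopp140: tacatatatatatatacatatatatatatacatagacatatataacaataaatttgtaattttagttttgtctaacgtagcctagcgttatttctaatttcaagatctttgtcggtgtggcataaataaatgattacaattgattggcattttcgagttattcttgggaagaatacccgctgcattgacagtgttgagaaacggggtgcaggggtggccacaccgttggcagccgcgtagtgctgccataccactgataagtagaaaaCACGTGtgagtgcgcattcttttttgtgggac
Nnp-1: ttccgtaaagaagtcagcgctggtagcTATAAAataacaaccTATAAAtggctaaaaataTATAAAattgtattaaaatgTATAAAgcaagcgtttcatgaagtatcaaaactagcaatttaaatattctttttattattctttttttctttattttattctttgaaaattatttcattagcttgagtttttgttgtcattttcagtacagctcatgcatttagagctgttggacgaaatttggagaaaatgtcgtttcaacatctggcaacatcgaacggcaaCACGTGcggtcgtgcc
NHP2: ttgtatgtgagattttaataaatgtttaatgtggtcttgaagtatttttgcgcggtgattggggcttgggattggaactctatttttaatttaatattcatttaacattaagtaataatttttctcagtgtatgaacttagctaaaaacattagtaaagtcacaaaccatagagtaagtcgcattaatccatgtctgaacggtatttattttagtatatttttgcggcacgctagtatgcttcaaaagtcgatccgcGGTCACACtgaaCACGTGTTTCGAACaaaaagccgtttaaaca
Nop56: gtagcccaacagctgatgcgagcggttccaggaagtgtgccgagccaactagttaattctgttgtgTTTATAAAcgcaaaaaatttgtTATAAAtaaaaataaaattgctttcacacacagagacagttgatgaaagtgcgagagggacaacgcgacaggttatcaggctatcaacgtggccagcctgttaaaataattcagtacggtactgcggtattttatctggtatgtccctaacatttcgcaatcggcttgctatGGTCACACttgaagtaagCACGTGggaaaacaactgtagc

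In these sequences CACGTG starts 19 bases after the 5' end in Nopp140, 35 after it in Nnp-1, 20 after it in NHP2 and 29 after it in Nop56, counting the first transcribed base as 1. The remaining capitals in Nnp-1 are 4 copies of TATAAA, the nearest of them 170 bases upstream of the 5' end. Nop56 holds 3 TATAAA matches, of which 2 overlap on opposite strands, and 1 copy of GGTCACAC, the core of Ohler motif 1, a common element of fly core promoters. NHP2 holds GGTCACAC as well, shortly before the E-box. Its E-box shares 1 base with a match on the other strand to GTTCGANNC, the letters used here for the B box that lies inside tRNA genes. A match says only that these letters are present.

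Peaks of Bdp1-GFP in the authors' optimal list, which was thresholded for reproducibility, lay at 4 of the 9 genes, or 44.4% (95% exact Clopper-Pearson interval 13.7 to 78.8%). The share of all protein-coding genes was 1913 of 13968, or 13.7%. That list holds exactly the 3206 strongest peaks of the pooled replicates, so a peak in it need not be present in each replicate. The 4 were Fib, NHP2, Nopp140 and Nnp-1. The 5 without one were Nop56, nop5, hoip, Nop60B and CG7637. A gene was counted when a peak of the authors' optimal list overlapped by at least 1 bp the 100 bp before or after a 5' end among its annotated transcripts. The interval covers counting over genes only, and the 9 genes share a function, so they are not independent draws.

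The 4 genes come from each class: 1 of the 4 box C/D genes, 1 of the 3 box H/ACA genes and both partners. How far the count holds in single replicates depends on the list. The deposited relaxed lists keep 30000 peaks per replicate, real peaks and background together. A relaxed peak was present in all 3 replicates at 7 of the 9 genes, all but NHP2 and CG7637, against 21.3% of protein-coding genes. Among the 3206 strongest peaks of a replicate, as many as there are optimal peaks, 3, 2 and 5 of the 9 genes had one in replicates 1, 2 and 3, against 13.2%, 11.5% and 15.1% of protein-coding genes. Only Fib was among the strongest in all 3 replicates, or 1 of 9 genes, against 7.08% of protein-coding genes. When peaks among the strongest of 2 replicates stood in for the optimal list, the count was 2 without replicate 1 (Fib and Nopp140), against 9.79% of protein-coding genes. It was 3 without replicate 2 (Fib, NHP2 and Nnp-1), against 10.9%, and 1 without replicate 3 (Fib), against 8.61%, so that the share of 11.1% in that last setting is near the background.

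Peak heights are given as the deposited peak signal divided by the median in the same replicate at the optimal peaks, so that 1 is a typical optimal peak. That median was 43.5, 56.3 and 50.04 signal units in replicates 1, 2 and 3. The scale between the deposited lists is not stated and sequencing depth is not known, so signals of separate replicates are set side by side only after this division or as ranks. Over all protein-coding genes with an optimal peak and a value in every replicate (1745), the median of the replicate mean was 0.982, with quartiles of 0.755 and 1.49. For genes without an optimal peak that still had a relaxed peak in every replicate (1226) the median was 0.441, with quartiles of 0.364 and 0.526.

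**Figure D1:**
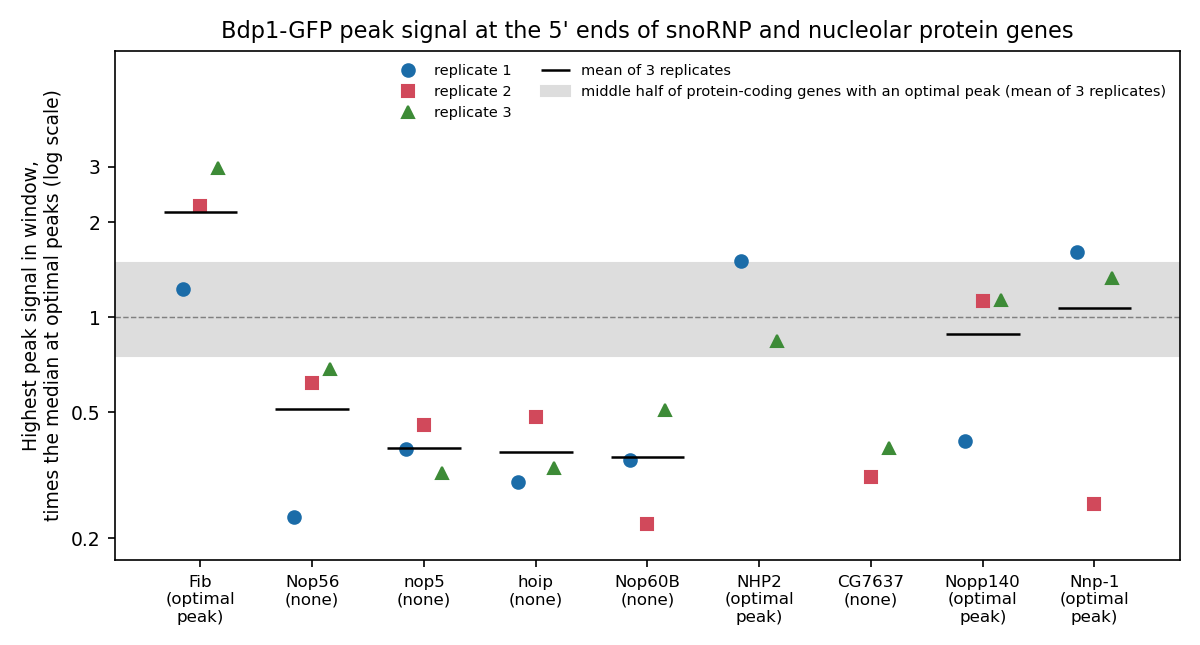
Highest Bdp1-GFP peak signal within 100 bp of a 5' end, in multiples of the median at the optimal peaks of the same replicate (log scale), for the 9 genes in the order box C/D, box H/ACA and partners. Points are the 3 replicates, the bar is their mean where all 3 had a peak, and the grey band spans the quartiles 0.755 to 1.49 of protein-coding genes with an optimal peak. Fib lies at or above 1.23 in each replicate, while Nnp-1 and Nopp140 each have 1 replicate far below the other 2.

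Fib carried the highest peak of the box C/D genes and, by mean, of the 7 genes with a peak in all 3 replicates. Its scaled signal was 1.23 in replicate 1, 2.26 in replicate 2 and 2.98 in replicate 3 (2.16 ± 0.878, SD, n = 3). All 3 values exceeded the median of 0.982, and the mean was above that of 89.3% of the 1745 occupied protein-coding genes. In the relaxed lists its peak ranked 1191, 476 and 306 of 30000. The gene (FBgn0003062) lies at 23072909 to 23074725 on the minus strand of 2R. Its optimal peak, at 23074746 to 23074844, had a summit 52 bp upstream of the 5' end and ended 21 bp short of it. That peak was 99 bp wide, and 12 of the 3206 optimal peaks were as narrow or narrower, against a median width of 396 bp. The relaxed peaks of the 3 replicates were wider and all spanned the 5' end.

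Nop56, which pairs with the product of nop5 at the centre of the box C/D particle, missed the optimal list narrowly. In the pooled list its peak ranked 3473 with a signal of 82.1, and the last peak kept, at rank 3206, had a signal of 87.0. The optimal peaks were exactly the 3206 strongest of the pooled list. Scaled signal at Nop56 was 0.233, 0.619 and 0.689 in replicates 1, 2 and 3 (0.513 ± 0.246, SD, n = 3). Replicate 1 lies below the lower quartile of genes without an optimal peak, and the other 2 replicates lie above the upper one. The gene (FBgn0038964) is at 22419095 to 22421068 on the minus strand of 3R.

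The remaining box C/D genes were low in every replicate. Scaled signal at nop5, the Nop58 homologue, was 0.384, 0.455 and 0.321 (0.387 ± 0.0673, SD, n = 3), and its replicates differed least among the 7 genes with a value in all 3. The gene hoip encodes the homologue of human SNU13, which binds the kink-turn of the guide RNA, and had 0.302, 0.484 and 0.335 (0.373 ± 0.0970, SD, n = 3). Their pooled peaks ranked 8272 and 8982. Both means sit within the quartiles of genes without an optimal peak and below all 1745 occupied genes. On 2L, nop5 (FBgn0026196) is at 6916753 to 6918743 on the minus strand and hoip (FBgn0286786) at 9699791 to 9700459 on the plus strand.

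Of the box H/ACA genes, NHP2 and CG7637 each lacked a window peak in 1 replicate. NHP2 encodes an RNA-binding core protein and had a scaled signal of 1.51 in replicate 1, no relaxed peak in its window in replicate 2 and 0.842 in replicate 3. The nearest replicate 2 peak had its summit 468 bp downstream of the 5' end, with a signal of 0.340 at rank 11710. NHP2 (FBgn0029148) is at 14801328 to 14802168 on the minus strand of 3L. Its optimal peak, at 14802206 to 14802601, had a summit 236 bp upstream, entered the window without reaching the 5' end, from which it stopped 38 bp away, and overlapped the body of the next gene, gnu. It ranked 1554 in the pooled list.

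Nop60B, the pseudouridine synthase gene, had 0.353, 0.222 and 0.509 (0.361 ± 0.144, SD, n = 3), and its peaks ranked 9295, 28562 and 4715 in the 3 replicates. The second of these ranks is near the end of the relaxed list. CG7637, the gene of the small core protein Nop10, had no peak in replicate 1 and values of 0.312 and 0.386 in replicates 2 and 3, with a pooled rank of 29661 of 30000. At that rank a peak stands among the lowest the lists hold. On 2R, Nop60B (FBgn0259937) is at 24174877 to 24186343 on the plus strand and CG7637 (FBgn0033548) at 10810556 to 10810936 on the minus strand.

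Both partner genes had an optimal peak, and in both 1 replicate stood apart. Scaled signal at Nopp140 was 0.407 in replicate 1, 1.13 in replicate 2 and 1.14 in replicate 3 (0.890 ± 0.418, SD, n = 3). Nnp-1 encodes the homologue of yeast RRP1, a factor of large-subunit assembly, and had 1.62 in replicate 1, 0.257 in replicate 2 and 1.33 in replicate 3 (1.07 ± 0.718, SD, n = 3). Its highest replicate was 6.31 times its lowest, the widest ratio among the 7 genes with a peak in all 3 replicates, though the SD of Fib (0.878) was larger, and its relaxed peak ranked 758, 21525 and 1003. Replicate 1 was the lowest at Nopp140, as it was at Fib, Nop56 and hoip, and replicate 2 was the lowest at Nnp-1, as it was at Nop60B. The mean of Nnp-1 without replicate 2 was 1.47 and that of Nopp140 without replicate 1 was 1.13.

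Nopp140 (FBgn0037137) is at 21832774 to 21836685 on the plus strand of 3L, with an optimal peak at 21832548 to 21832943. Nnp-1 (FBgn0022069) is at 13363308 to 13366189 on the minus strand of 2L, with an optimal peak at 13366027 to 13366422. Both peaks contained the 5' end, with summits 28 and 36 bp upstream. Each of these peaks takes in the printed promoter sequence but for its most upstream bases, the E-box included.

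By mean scaled signal the order of the 7 genes with a peak in all 3 replicates was Fib, Nnp-1, Nopp140, Nop56, nop5, hoip and Nop60B. The replicate range of each overlapped that of the next, so no neighbouring pair is separated by these data. By mean percentile rank Nopp140 came before Nnp-1 and nop5 before Nop56. Fib was first in replicates 2 and 3 and stood behind Nnp-1 and NHP2 in replicate 1.

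**Figure D2:**
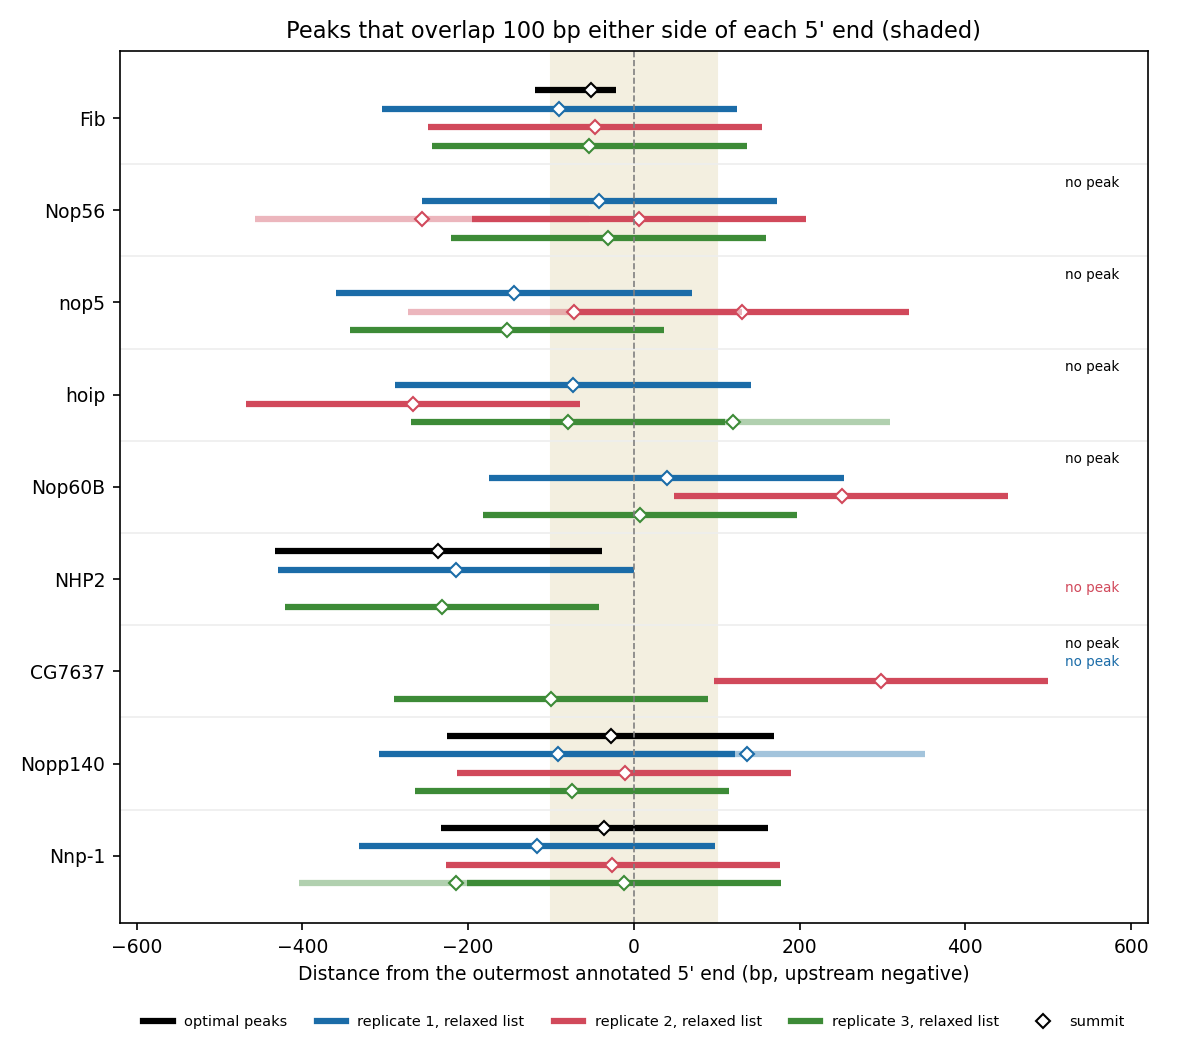
Extent of every peak that overlaps 100 bp either side of each 5' end (shaded), with its summit as a diamond, against distance from the outermost annotated 5' end in bp, upstream negative. For each gene the black line is the optimal peak and the coloured lines are the relaxed peaks of replicates 1 to 3, with secondary peaks paler. Summits of the highest peaks at Fib, Nopp140 and Nnp-1 lie upstream of the 5' end in each replicate, and those at NHP2 lie farther upstream, near -223.5 bp.

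Summits lay mostly upstream of the 5' end. The highest relaxed window peak was taken for each gene in each replicate, with or without an optimal peak. This gave 25 summits, 19 upstream and 6 downstream, with a median of -54 bp and a range of -266 to 298 bp. In the optimal list the summits of the 4 genes with a peak were all upstream, with a median of -44 bp and a range of -236 to -28 bp. In that same list the median over the 1913 protein-coding genes with an optimal peak was -105 bp, with quartiles of -170 and -43 bp, and 88.9% of summits were upstream. At Fib the replicate summits averaged -63.7 ± 23.1 bp, at Nopp140 -59 ± 42.5 bp and at Nnp-1 -51.7 ± 57.0 bp (SD, n = 3 each). At NHP2 they averaged -223.5 bp over 2 replicates. Among the genes without an optimal peak the position was steady at Nop56 (-22.3 ± 25.1 bp; SD, n = 3 each here and below). It was scattered at nop5 (-56 ± 161 bp), hoip (-139 ± 110 bp) and Nop60B (99.7 ± 132 bp). At nop5 the highest peak of replicate 2 had its summit at 130 bp. A lower window peak of that replicate had its summit at -72 bp, beside -145 bp in replicate 1 and -153 bp in replicate 3.

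Several of these genes start back to back with another gene, so 1 peak can belong to either promoter. At 6 of the 9 genes (66.7%) a divergent protein-coding 5' end lay within 500 bp, against 26.4% of all protein-coding genes. Of these 6 genes 2 had an optimal peak, and so did 2 of the other 3. Over all protein-coding genes, 30% of those with such a neighbour had a peak, against 7.84% of the rest. The 5' end of CG3085 lies 98 bp from that of Fib, and the Fib peak touched the windows of both. That of Grx3, a glutaredoxin gene, lies 258 bp from that of Nnp-1, and the peak again touched both windows. That of mats lies 93 bp from that of Nop56, and the highest relaxed peak was the same for both genes in each replicate. The peak of Nopp140 touched no other protein-coding window, as its divergent neighbour CG7148 starts 521 bp away. The gene to which a shared peak belongs was not tested.

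**Figure D3:**
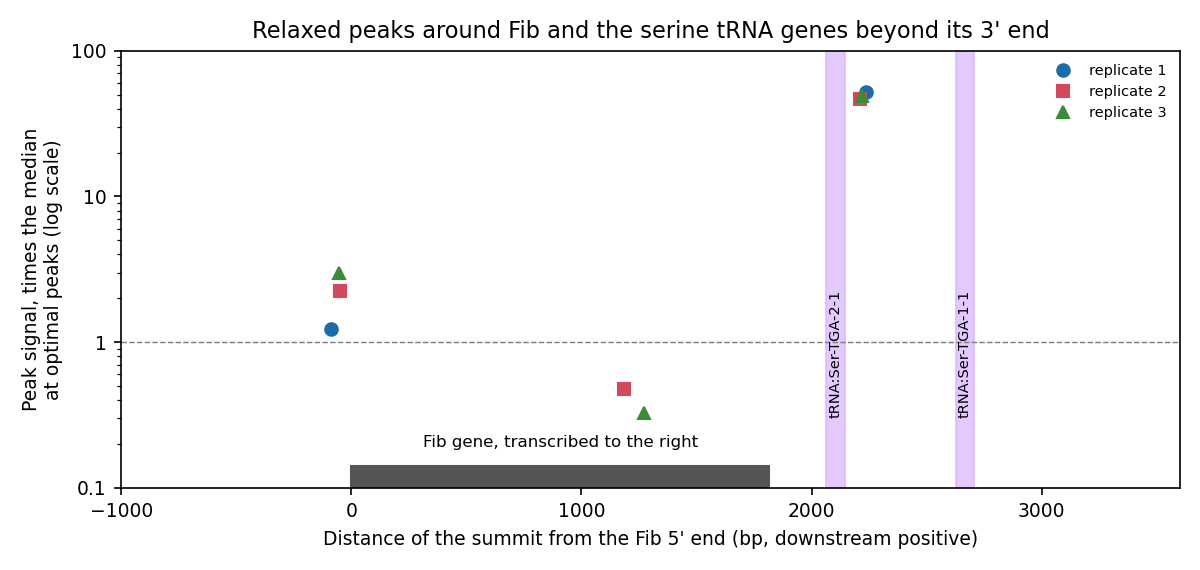
Relaxed Bdp1-GFP peaks of each replicate around Fib by distance of the summit from the Fib 5' end in bp, downstream positive, against peak signal in multiples of the median at the optimal peaks (log scale). The grey bar is the gene and the shaded columns are the 2 serine tRNA genes. The peak at the tRNA genes stands near 49.1 and the peak at the Fib 5' end between 1.23 and 2.98.

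Among the 9 genes Fib lay nearest to a Pol III gene. The serine tRNA gene tRNA:Ser-TGA-2-1 lies 247 bp beyond the 3' end of Fib, and tRNA:Ser-TGA-1-1 lies 809 bp beyond it, measured to the nearer end of each. The nearer one has its 5' end 2144 bp from that of Fib. They share an optimal peak at 23071882 to 23072803, ranked 8, with a scaled signal of 51.8, 46.9 and 48.8 (49.1 ± 2.49, SD, n = 3). That is 42.0, 20.7 and 16.4 times the Fib peak in replicates 1, 2 and 3. Whether the tRNA peak bears on the signal at the Fib promoter was not tested. For the other 8 genes the nearest Pol III gene lay between 21391 bp (tRNA:Cys-GCA-4-1, from Nopp140) and 644447 bp (tRNA:Gln-CTG-4-1, from Nnp-1) away.

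Some host genes of snoRNAs are themselves snoRNP genes. The 9 genes hold 9 annotated snoRNA genes within their bounds: 7 in Nop60B, 1 in Fib and 1 in nop5. None of the 9 snoRNA genes had an optimal peak at its 5' end, while 13.7% of protein-coding genes had one. Only snoRNA:nop5-x16-a had any relaxed peak, ranked 4745 in replicate 1 and 9377 in replicate 3 and absent in replicate 2. Of protein-coding genes 36.8%, 36.6% and 40.8% had a relaxed peak in replicates 1, 2 and 3. The share over all snoRNA genes is not given here, so these counts are not read as particular to the 9 snoRNA genes.

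Of the 7 motifs searched, the E-box was the only one held by more than 2 of the 9 promoters. There were 10 E-boxes, 2 of them in Nop60B, with first bases between -13 and 35, 8 after the 5' end and 2 before it. Within 50 bases on either side of the 5' end the share was 9 of 9, against 1.94% of protein-coding promoters. Since every one of these genes has the motif, it does not separate the 4 with a peak from the 5 without. TATAAA was found in 2 promoters (45.8% of all promoters), GGTCACAC in 2 (7.69%), GTTCGANNC in 2 (2.76%, NHP2 and CG7637), the DNA replication-related element TATCGATA in 1 (9.36%, Nop60B), CATCNCTA, taken here as the core of Ohler motif 7, in 1 (6.41%, CG7637) and GAGAGAG in none (5.86%). GC content of the 9 promoters ran from 31.3 to 42.7% with a median of 35%, against a median of 38% over all promoters.

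**Figure D4:**
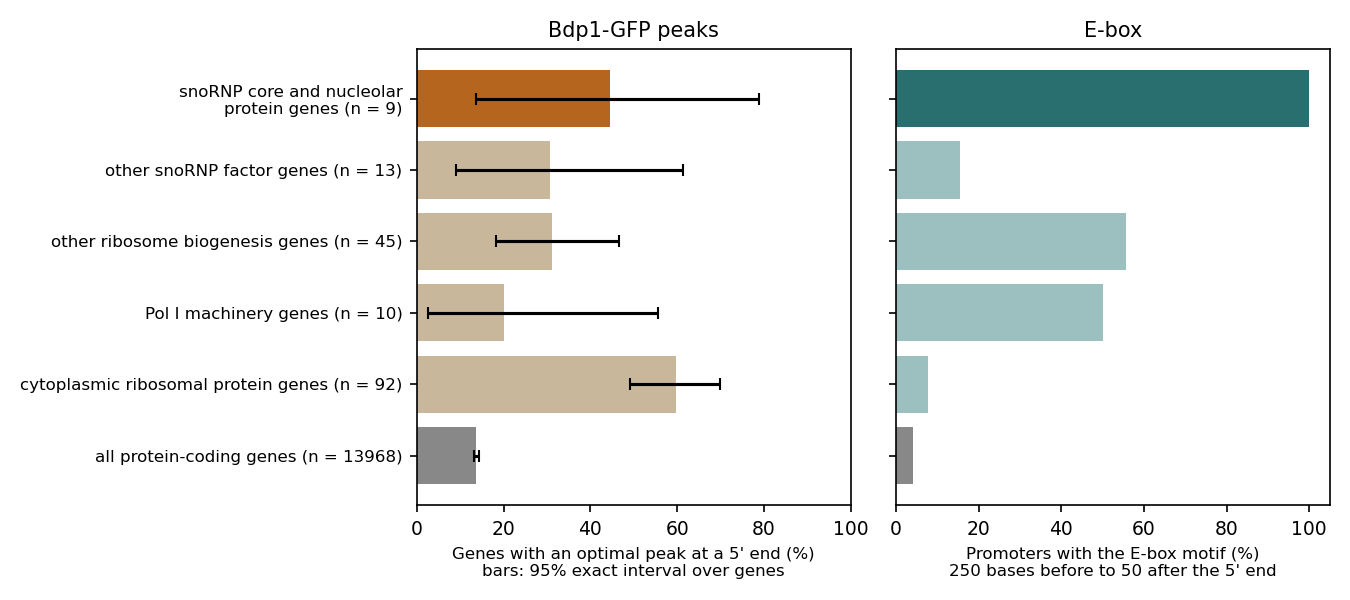
Left, percent of genes with an optimal Bdp1-GFP peak within 100 bp of a 5' end, with 95% exact intervals over genes; right, percent of promoters (250 bases before to 50 after the 5' end) with the E-box CACGTG. Rows run from the 9 snoRNP and nucleolar genes at 44.4% and 100% through other gene groups to all 13968 protein-coding genes at 13.7% and 4.20%.

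Other genes of the same pathway gave the setting for these counts. The 13 other snoRNP factor genes include assembly and processing factors and also Gar1, which encodes a protein of the box H/ACA particle. Of these 13 genes 4 had an optimal peak (30.8%). They were rept (0.889 ± 0.278, SD, n = 3) and pont (0.804 ± 0.352), the paired ATPases of the assembly machinery, spag (0.705 ± 0.361), the homologue of the human assembly factor RPAP3, and Smn, with no peak in replicate 1 and 0.499 and 1.03 in replicates 2 and 3. Of 45 other ribosome biogenesis genes 14 had one (31.1%), with the highest means at eIF6 (4.39 ± 0.815), an anti-association factor of the large subunit, the GTPase gene Ns2 (2.53 ± 0.297), CG13097 (1.26 ± 0.388) and RpLP0-like (1.00 ± 0.303; SD, n = 3 each). The peaks at eIF6 and Ns2 thus had higher means than that at Fib, though the replicate range of Ns2, 2.19 to 2.72, falls inside that of Fib. Of 10 RNA polymerase I genes 2 had one (20%), TAF1C-like (1.31 ± 0.267) and Polr1F (0.653 ± 0.359), the second through a peak that also lies at Rat1 of the biogenesis list. Of 92 cytoplasmic ribosomal protein genes 55 had one (59.8%). All these shares stand above the 13.7% of protein-coding genes. That of the snoRNP factors, however, has an exact interval over genes of 9.09 to 61.4%, which takes in 13.7%. The snoRNP factor count was 0 of 13 without replicate 1 and without replicate 3. The share of the RNA polymerase I genes rests on 2 genes, and its exact interval over genes, 2.52 to 55.6%, also takes in 13.7%. The RNA polymerase I count was 2 of 10 without replicate 2, against 10.9% of protein-coding genes. It was 1 of 10 without replicate 1 and without replicate 3, near the 9.79% and 8.61% of protein-coding genes there. No test was made between lists.

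The E-box was shared unevenly by these groups. It was found in 100% of the 9 promoters described here, in 55.6% of those of other ribosome biogenesis genes and in 50% of those of RNA polymerase I genes. It was found in 15.4% of other snoRNP factor promoters and 7.61% of ribosomal protein promoters. Among other ribosome biogenesis genes 7 of 25 with the motif had an optimal peak, or 28%, against 7 of 20 without it, or 35%. No RNA polymerase I gene with the motif had a peak (0 of 5), against 2 of 5 without it. For other snoRNP factor genes the counts were 0 of 2 with the motif and 4 of 11, or 36.4%, without it. Among ribosomal protein genes the larger share was with the motif, 5 of 7 or 71.4%, against 50 of 85 without it, or 58.8%. Over all protein-coding genes the shares were 19.8% with it and 13.4% without it.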

How the data were processed

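Binding was measured by ChIP-seq in 3 samples that form 1 group, as the labels give them. The authors deposited peak lists on dm6 in narrowPeak format, 1 relaxed list per replicate, 1 for the pooled replicates and 1 optimal list thresholded by the irreproducible discovery rate (IDR). The value used is the peak signal as the authors deposited it. A control alignment was used in making the relaxed lists, per the deposited text. The aligner, peak caller and filters were not given in the sources used here, nor was the IDR threshold, and depth is not known. Lists on dm3 were not used. Columns that could not be tied to a sample numbered 0.

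Positions are 1-based (dm6). Gene models were from Ensembl release 115 (BDGP6.54) and sequence from the NCBI assembly, whose chromosome lengths hold all dm6 peaks. For each gene the highest signal in its window was taken per replicate and divided by the median at the optimal summits. Computations used Python 3.11.15, numpy 2.4.6, scipy 1.17.1 and matplotlib 3.10.9, and the overlap step was tested on simulated peaks.

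The genes, lists and motifs were chosen with earlier results of these data known. The genes named were all 9, list genes with an optimal peak (the 4 highest in lists over 20 genes), genes sharing a peak with 1 of the 9, snoRNA genes inside them and the nearest Pol III gene. Divergent neighbours, peak widths, the E-box counts by list, the letters for Ohler motif 7 and the genes CG7148, mats and gnu were chosen after values were seen. Of the names listed, 14 of 16 snoRNP factors, 46 of 54 biogenesis factors and 10 of 13 RNA polymerase I proteins matched a gene, giving 13, 45 and 10 genes. With 1 group there is no test between conditions, so no p-value is given, and lists are described by counts beside the share of all protein-coding genes.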

Additional observations from a re-analysis of the deposited data

How the results depend on the processing

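Of 108 recomputed values 84 kept within their spread or within 1.5 times the count, and 24 moved. The optimal count of 4 of the 9 genes fell to 2 when the peak had to contain the 5' end (Nopp140 and Nnp-1; 11.0% of protein-coding genes), and over the replicates left out in turn it ran from 1 to 3. With a replicate left out, the count of 1 among the strongest of all 3 replicates ran from 1 to 3. It was 2 without replicate 1, 3 without replicate 2 and 1 without replicate 3. The shares of protein-coding genes there were 9.04%, 10.1% and 7.80%, so that 1 of 9 genes in the last setting is near the background. The 7 genes with a relaxed peak in all replicates became 9 with windows of 500 bp (34.1% of protein-coding genes) and 5 when the peak had to contain the 5' end (15.1%). With the 1603 highest optimal peaks the biogenesis count fell to 4 of 45, the snoRNP factor count to 1 of 13 and the RNA polymerase I count to 1 of 10. Each of these is near the 6.80% of protein-coding genes in that setting. With peaks among the strongest of at least 2 replicates the snoRNP factor count was 2 of 13, near the 13.5% of protein-coding genes there. The RNA polymerase I count was 1 of 10 when the peak had to contain the 5' end, against 11.0% of protein-coding genes. It was also 1 of 10 with the summit within 250 bp, against 13.1%, so it lay near the background in each setting. With replicates 1, 2 and 3 left out in turn, 9.79%, 10.9% and 8.61% of protein-coding genes had a peak. The biogenesis count was then 7, 10 and 5 of 45 and the RNA polymerase I count 1, 2 and 1 of 10. The biogenesis count of 5 and the RNA polymerase I counts of 1 are near those shares. The snoRNP factor count was 0, 2 and 0 of 13. The exact interval over genes for 0 of 13, 0 to 24.7%, takes in the shares of protein-coding genes without replicate 1 and without replicate 3. With motif windows of 100 bp on either side, TATAAA was in 1 of the 9 promoters and CATCNCTA in 0, while the E-box stayed at 9. Without replicate 1 the mean of Nopp140 (1.13) exceeded that of Nnp-1 (0.794), the other way round from the order with all replicates. The causes of these moves were not tested. No paired analysis was possible because there is only 1 group. Depth is not known, so the absence of a peak in a relaxed list, as at NHP2 in replicate 2, does not show absence of binding.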
